A study of Mus musculus with 367 samples.

Results

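The genes described here are 10 named regulators and lipid-handling genes of fat cells: *Zfp423*, *Pparg*, *Cebpa*, *Cebpb*, *Cebpd*, *Fabp4*, *Adipoq*, *Plin1*, *Plin2* and *Lpl*. They were taken by name from 50600 measured genes and read in every single cell of the series. The cells came from large full-thickness back wounds of *Sm22-Cre;tdTomato* mice of mixed background, both sexes, wounded at 6 to 8 weeks of age. In these mice the *Sm22* (*Tagln*) promoter, active in contractile cells, drives Cre, and every cell that has recombined keeps tdTomato. Wound tissue of 2 to 3 animals was pooled, and viable tdTomato-high cells were sorted and sequenced as full-length transcripts after microfluidic capture: 3 captures on post-wounding day 12 (54, 65 and 40 cells), 2 on day 15 (84 and 33) and 2 on day 21 (49 and 42). All groups share the genotype, the wound and the sort, and differ in the day.

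Of all these cells, 293 passed the depth and quality filters, with 171233 to 8041820 estimated fragments per cell and a median of 1481480. Day 15 cells were the shallowest, with a median of 964508 fragments against 1658885 on day 12 and 2260370 on day 21. Cells were put into kinds by 3 genes alone. Matrix cells had *Col1a1* of at least 1000 FPKM, *Rgs5* under 100 and *Tyrobp* under 50 (198 cells), mural cells had *Rgs5* of at least 500 and *Tyrobp* under 50 (57 cells), and myeloid cells had *Tyrobp* of at least 500 (27 cells), which left 11 cells outside these kinds. FPKM is the number of fragments scaled by the transcript's length and the cell's mapped fragments. The capture, not the cell, is the replicate, and since captures of 1 day may share pooled tissue, p-values measure the spread between captures, which may be technical.

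The 3 genes that set the kinds were left out of the marker sums. The summed FPKM of 8 other myeloid genes had a median of 29575 in myeloid cells (range 4058 to 52771) and of 0 in both matrix cells (range 0 to 1716) and mural cells (range 0 to 749). The sum of 7 other mural genes had a median of 497 FPKM in mural cells (range 17.0 to 5548), 11.5 in matrix cells (range 0 to 408) and 0.36 in myeloid cells (range 0 to 29.2), so mural and matrix cells overlapped. The sum of 5 other matrix genes overlapped between all kinds, with medians of 24458 FPKM in matrix cells (range 1396 to 55878), 2023 in mural cells (range 34.8 to 33697) and 16.4 in myeloid cells (range 0.63 to 23290). Of 6 markers of mature fat cells, *Adipoq*, *Cidec*, *Lep* and *Cfd* had no value in any kept cell. The others did: *Plin1* had a value in 41 kept cells, 1 of them at 10 FPKM or more. *Retn* had a value in 9, of which 0 were at 10 FPKM or more.

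Fat cell formation is a relay of transcription factors. ZFP423 commits precursors to the fat lineage, C/EBPβ and C/EBPδ act early after induction, and PPARγ with C/EBPα then holds the mature programme and switches on *Fabp4*, *Adipoq*, *Plin1* and *Lpl*. FABP4 carries fatty acids inside the cell, adiponectin (*Adipoq*) is a secreted fat cell hormone, and lipoprotein lipase (*Lpl*) frees fatty acids from circulating triglyceride. Perilipin 1 coats the large droplets of fat cells, whereas perilipin 2 coats small droplets in many cell types. Several are not particular to fat: macrophages also use *Fabp4*, *Plin2*, *Lpl*, *Pparg* and the C/EBP genes, and capillary endothelium uses *Fabp4*. In large mouse wounds new fat cells can form around new hair follicles in the wound centre. The authors place this in the fourth week after wounding, and the last day sampled here was day 21.

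The 10 genes spread widely in how often they were seen. Of 293 kept cells, *Lpl* had a value above 0 in 286, *Cebpb* in 152, *Plin2* in 135, *Cebpd* in 87, *Fabp4* in 48, *Plin1* in 41, *Zfp423* in 36, *Cebpa* in 33 and *Pparg* in 13. *Adipoq* was listed at 0 in every cell of the series, filtered or not, and with 293 kept cells at 0 a share of 1.02% is the upper limit (3 cells, counting error only). A value of at least 10 FPKM was rarer: 170 cells for *Lpl*, 115 for *Plin2*, 36 for *Fabp4*, 21 for *Cebpb*, 17 each for *Cebpa* and *Cebpd*, 7 for *Zfp423*, 5 for *Pparg* and 1 for *Plin1*. A value above 0 came from less than 1 estimated fragment in 40 of the 152 cells with *Cebpb* and in 10 of the 41 with *Plin1*. A listed 0 is not proof of absence, because *Gapdh*, a gene that all cells use, was itself listed at 0 in 25 of the 293 cells. Other widely used genes were missed less often: *Tmsb4x* in 6 cells, *Eef1a1* in 1 and *Actb* in 0.

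**Figure D1:**
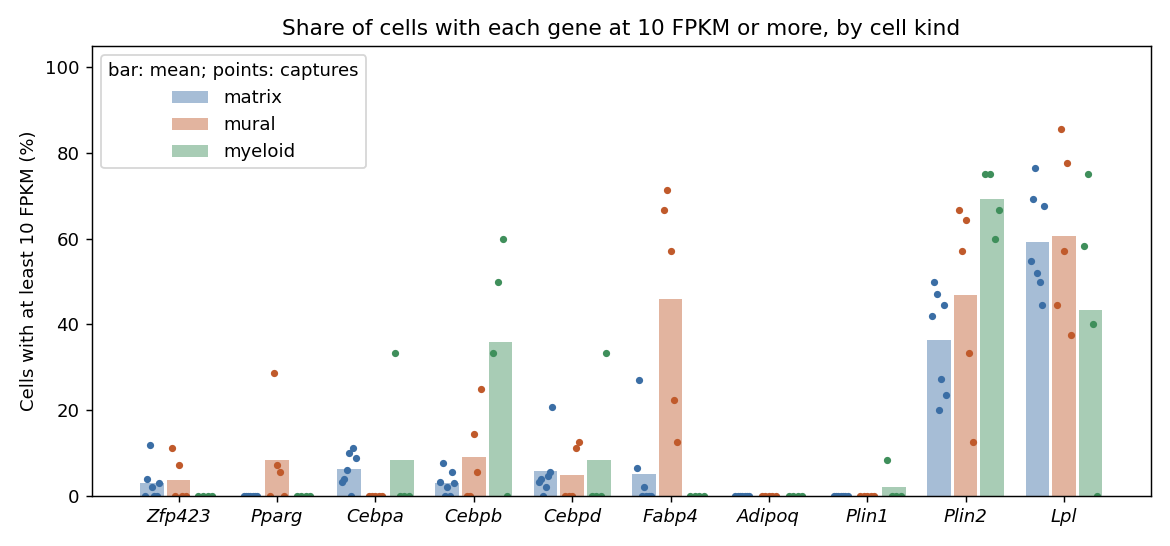
Share of kept cells with each gene at 10 FPKM or more (%), by cell kind; bars are means over captures with at least 3 cells of the kind, and points are captures. *Fabp4* stands high in mural cells, *Plin2* and *Cebpb* in myeloid cells, and *Adipoq* is at 0 in all kinds.

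*Pparg*, the factor at the head of the mature fat programme (ENSMUSG00000000440, chromosome 6, 115360951 to 115490399 in mm10), was listed at 0 in all 198 matrix cells, so that at most 1.52% of matrix cells could have had a value by the same limit. It had a value in 7 of 57 mural cells (12.3%, exact 95% interval 5.08 to 23.7%) and in 6 of 27 myeloid cells (22.2%, 8.62 to 42.3%). Such intervals, here and below, pool the cells of all captures. They cover counting error only, not the spread between captures. The mural cells with *Pparg* were 2 of 7 in day 12 capture 2, 3 of 14 in day 12 capture 3 and 2 of 18 in day 15 capture 1. Their values were 32.4 and 12.2 FPKM in the first of these captures, 24.4, 1.86 and 1.86 in the second, and 534 and 1.99 in the third. A single day 15 cell thus held 87.7% of all *Pparg* FPKM of mural cells. The 6 myeloid values ran from 0.26 to 11.9 FPKM, and 5 of these cells were from day 12. As capture means, the difference of mural minus matrix cells was 1.88 on the log2(mean FPKM + 1) scale (SE 0.80, higher in 3 of 5 captures and 0 in both kinds in the other 2), which did not pass (limma with Benjamini-Hochberg adjustment over all genes tested, adjusted p = 0.32). Because *Pparg* was at 0 in every matrix capture, that difference depends on the added 1 and is no fold.

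*Zfp423* (ENSMUSG00000045333, chromosome 8, 87661810 to 87959595) had the opposite reach: 23 of 198 matrix cells (11.6%, 7.51 to 16.9%), 12 of 57 mural cells (21.1%, 11.4 to 33.9%) and 0 of 27 myeloid cells, which allows up to 11.1%. Most values were low, with a median of 0.95 FPKM among matrix cells that had one. The highest was 161 FPKM in a matrix cell of day 21 capture 2, which held 47.7% of the *Zfp423* FPKM of all matrix cells. In matrix cells the capture means were 0.02, 2.21 and 4.91 FPKM on day 12, 0.62 and 0.11 on day 15, and 0 and 4.77 on day 21, so the days overlapped. No cell had both *Zfp423* and *Pparg*. In mural cells, which held both genes, 1.98 such cells would be counted if the 2 genes were independent within captures.

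*Cebpa* (ENSMUSG00000034957, chromosome 7, 35119293 to 35121928), the partner of PPARγ, was seen in 22 of 198 matrix cells (11.1%, 7.10 to 16.3%), in 2 of 57 mural cells (3.51%, 0.428 to 12.1%) and in 9 of 27 myeloid cells (33.3%, 16.5 to 54%). Where matrix cells had it, it was often strong, with 13 of the 22 at 10 FPKM or more and a maximum of 488 in day 15 capture 1. Mean FPKM per capture in matrix cells was 1.67, 1.57 and 0.92 on day 12, 13.8 and 0.02 on day 15, and 7.25 and 4.71 on day 21. Mural means were 0 in 3 of the 5 captures that had at least 3 mural cells, and 0.55 and 0.21 in the others. Mural cells were below matrix cells in all 5 captures, by -1.95 on the log2 scale (SE 0.68), but the difference did not pass over all genes (limma, adjusted p = 0.22). In myeloid cells 6 of the 9 cells with *Cebpa* were from day 12 capture 2, where 1 cell reached 544 FPKM.

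*Cebpb* (ENSMUSG00000056501, chromosome 2, 167688915 to 167690418) was the regulator seen most often. All 27 myeloid cells had it (100%, 87.2 to 100%), against 33 of 57 mural cells (57.9%, 44.1 to 70.9%) and 86 of 198 matrix cells (43.4%, 36.4 to 50.6%). Mean FPKM in myeloid cells was 15.2 in day 12 capture 2, 53.7 in day 15 capture 2, and 27.8 and 4.14 in day 21 captures 1 and 2. Matrix cells of the same captures had 3.24, 0.86, 2.21 and 1.51 FPKM. Single cells overlapped, with matrix values up to 30.04 FPKM and a lowest myeloid value of 0.79. The myeloid mean was the higher one in 4 of 4 captures, and the capture means of the 2 kinds did not overlap. The difference was 2.75 on the log2 scale (SE 1.00), with an adjusted p of 0.11 (limma), and of the alternatives run it passed only when single-cell log2 values were averaged (2.34, adjusted p = 0.027). Myeloid cells were also deeper, with a median of 2050420 fragments against 1462240 in matrix cells. The expected share after each cell was thinned to 500000 fragments was 89.0% in 25 myeloid cells and 27.1% in 193 matrix cells, with 2 and 5 shallower cells left out.

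*Cebpd* (ENSMUSG00000071637, chromosome 16, 15887286 to 15891031) was seen at like shares in the 3 kinds: 59 of 198 matrix (29.8%), 19 of 57 mural (33.3%) and 7 of 27 myeloid cells (25.9%). It was mostly weak, with a median of 1.17 FPKM among the 87 cells that had it, and high in few cells. In matrix cells 7 of the 12 cells at 10 FPKM or more were from day 21 capture 2, whose mean was 13.6 FPKM against 0.43 to 4.46 in the other 6 captures. The highest values were 441 FPKM in a day 21 myeloid cell and 221 in a day 21 mural cell.

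**Figure D2:**
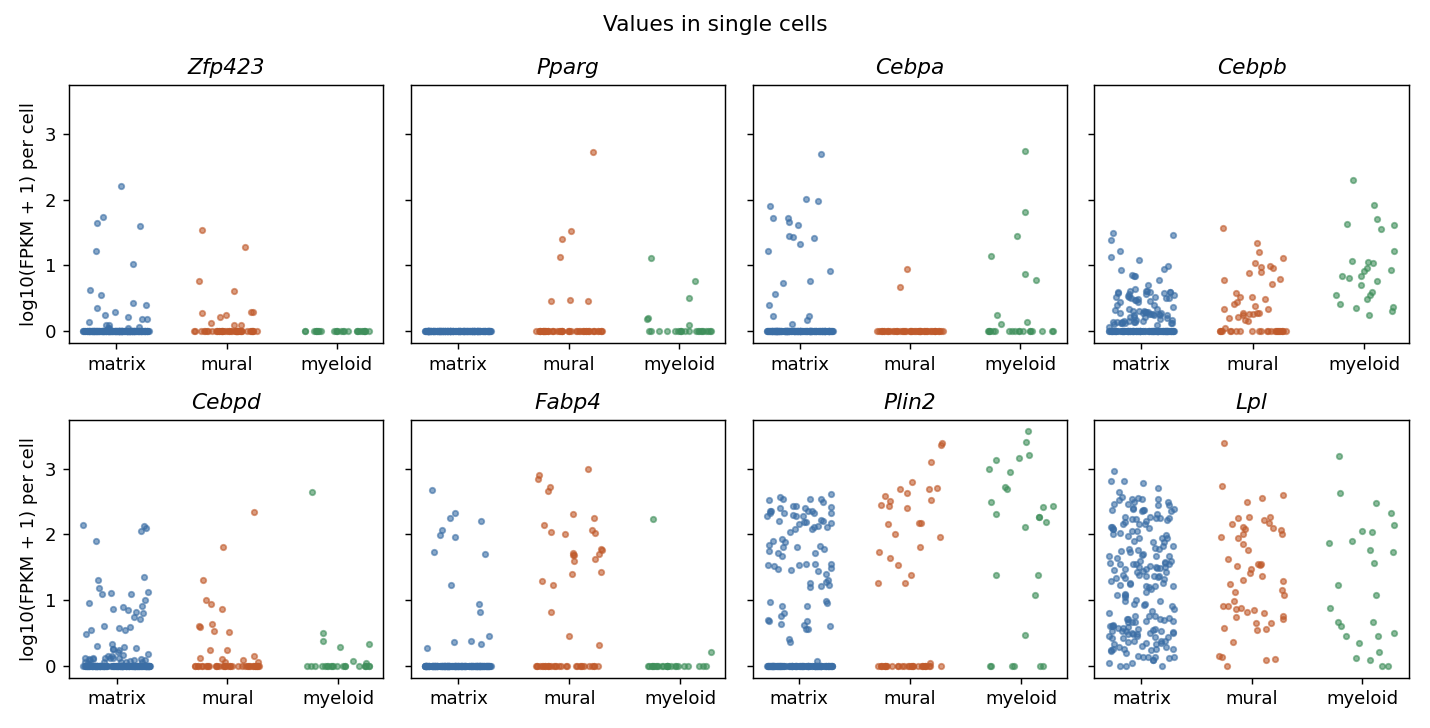
FPKM of 8 of the genes in every matrix, mural and myeloid cell that passed the filters, as log10(FPKM + 1); each point is a cell. *Pparg* is at 0 in all matrix cells, *Cebpb* is above 0 in all myeloid cells, and *Fabp4* and *Plin2* split into cells at 0 and cells well above it.

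*Fabp4* (ENSMUSG00000062515, chromosome 3, 10204088 to 10208576) rose in mural cells. Mean FPKM in mural cells was 128, 172 and 97.1 in day 12 captures 1, 2 and 3, 55.3 in day 15 capture 1 and 25.2 in day 21 capture 1. Matrix cells of these captures had 22.2, 28.7, 0.26, 0.63 and 0 FPKM. Mural medians were 37.9, 41.2 and 22.4 FPKM in the day 12 captures, but 0 in day 15 capture 1 and day 21 capture 1. Matrix medians were 0 in all 5 captures. The day 21 mural mean came from 1 of 8 cells, at 201.7 FPKM. Mural means were higher in 5 of 5 captures, and the lowest of the 5 mural means lay between the 2 highest matrix means. The difference was 4.23 on the log2(mean FPKM + 1) scale (SE 0.69, n = 5 captures of both kinds, with the capture as a block), and it passed over all 13821 genes tested (limma, adjusted p = 0.015). Over all genes, 1.69% passed this comparison and the median difference was -0.22. Among the 8 genes of the set that could be tested, *Fabp4* was the 1 that passed, and the median of the 8 was 0.55. The call was lost without day 12 capture 3 (3.71, adjusted p = 0.062), without day 15 capture 1 (4.01, adjusted p = 0.068) and with no filter on low values (adjusted p = 0.22).

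Mural cells with *Fabp4* were 27 of 57 (47.4%, 34 to 61%), and 24 of them were at 10 FPKM or more, up to 999.6 FPKM in a cell of day 12 capture 2. By capture, a value above 0 was found in 7 of 9, 5 of 7 and 10 of 14 mural cells on day 12, 4 of 18 and 0 of 1 on day 15, and 1 of 8 on day 21. All these shares lay outside the pooled interval. They were 77.8%, 71.4% and 71.4% on day 12, 22.2% and 0% on day 15, and 12.5% on day 21. The day 12 captures were thus all above the later ones, a difference that was not tested. Matrix cells with *Fabp4* were 17 of 198 (8.59%, 5.08 to 13.4%): 2 of 31, 7 of 26 and 3 of 17 on day 12, 5 of 50 and 0 of 22 on day 15, and 0 of 18 and 0 of 34 on day 21. *Fabp4* also marks capillary endothelium, so endothelial genes were read in the same cells. In the 24 mural cells at 10 FPKM or more, 3 of the 6 endothelial markers (*Cdh5*, *Kdr* and *Egfl7*) were listed at 0, and 2 cells had any of the 6 at 10 FPKM or more. Of the 33 mural cells under 10 FPKM, 4 did. In the 10 matrix cells with *Fabp4* at 10 FPKM or more, *Pecam1* had a value in 5 cells, with a mean of 0.35 FPKM, and the 5 other endothelial markers and all 6 fat cell markers (*Adipoq*, *Plin1*, *Cidec*, *Retn*, *Lep* and *Cfd*) were listed at 0. Of the 9 myeloid markers, 4 were listed at 0 in these 10 cells, and the sum of the list ran from 0 to 770 FPKM with a median of 0.62. A myeloid marker at 10 FPKM or more was found in 3 of the 10 cells, against 24 of all 198 matrix cells. *Lyz2* averaged 77.1 FPKM there, from 2 cells with a value, against 10.3 in all matrix cells, and *Cd68* 32.2 FPKM, also from 2 cells, against 2.46. Their part in the *Fabp4* values was not tested.

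*Plin2* (ENSMUSG00000028494, chromosome 4, 86648386 to 86670060) rose in myeloid cells. Its mean was 622 FPKM in day 12 capture 2, 756 in day 15 capture 2, and 471 and 697 in day 21 captures 1 and 2. Matrix cells of these captures had 53.4, 58.3, 32.9 and 27.8 FPKM. Myeloid cells were few (12, 4, 5 and 3), and their highest values were 3693.4, 2526.5, 1352.8 and 1599.1 FPKM. Their medians were 232, 248, 10.96 and 491 FPKM, against 10.4, 0, 4.055 and 0 in matrix cells. Single cells overlapped: 10, 3, 3 and 2 of these myeloid cells had a value, and matrix cells reached 376 FPKM in day 21 capture 2. The capture means of the 2 kinds did not overlap. The difference was 3.90 on the log2 scale (SE 0.68, higher in 4 of 4 captures, capture as a block) and passed over all 13075 genes tested (limma, adjusted p = 0.014). Myeloid cells differed from matrix cells at many genes: 6.26% of all genes passed, 222 higher and 597 lower (229 and 1130 after each cell was scaled to the same total), and the median difference over all genes was -0.98 (-1.18 when scaled). *Plin2* was the 1 gene that passed among the 7 of the set that could be tested, whose median was 0.15. The call was lost without day 12 capture 2 (4.02, adjusted p = 0.061) and with no filter on low values (adjusted p = 0.083).

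**Figure D3:**
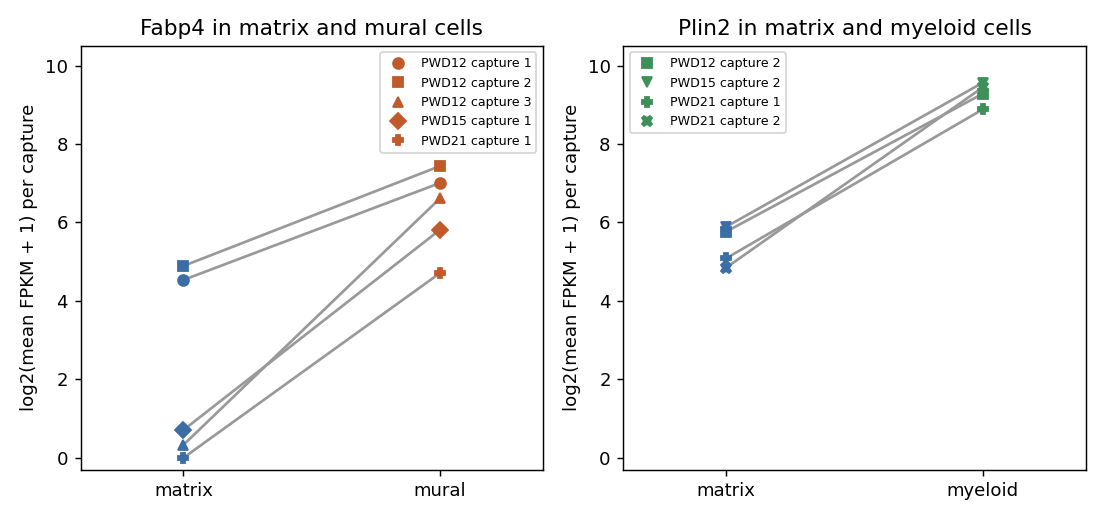
Mean level per capture, as log2(mean FPKM + 1), of *Fabp4* in matrix and mural cells (5 captures) and of *Plin2* in matrix and myeloid cells (4 captures); lines join the 2 kinds of the same capture. Each line rises from matrix cells to the other kind.

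*Plin2* was also the second most frequent strong gene of matrix and mural cells. It had a value in 84 of 198 matrix cells (42.4%, 35.4 to 49.6%), 27 of 57 mural cells (47.4%, 34 to 61%) and 21 of 27 myeloid cells (77.8%, 57.7 to 91.4%). Among cells that had it, the median was 64.3 FPKM in matrix, 253 in mural and 273 in myeloid cells. All 8 cells above 1000 FPKM were mural (3) or myeloid (5), and the highest was a myeloid cell of day 12 capture 2 at 3693 FPKM. Mural means ran from 2.12 FPKM in day 21 capture 1 to 410 in day 12 capture 3, and mural minus matrix was 0.72 (SE 0.82, higher in 3 of 5 captures, limma adjusted p = 0.73).

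Perilipin 1, the coat protein of mature fat cells, gave a different picture. *Plin1* (ENSMUSG00000030546, chromosome 7, 79720218 to 79732903) stayed at or under 1.37 FPKM in 40 of the 41 cells that had it. The exception was a myeloid cell of day 12 capture 2 with 2168 FPKM, 232930 estimated fragments and *Plin2*, *Fabp4* and *Pparg* all listed at 0. *Adipoq* (ENSMUSG00000022878, chromosome 16, 23146536 to 23158028) was listed at 0 there as well. No cell had both *Plin1* and *Plin2* at 10 FPKM or more.

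*Lpl* (ENSMUSG00000015568, chromosome 8, 68880491 to 68907448) was nearly universal: 195 of 198 matrix (98.5%), 56 of 57 mural (98.2%) and 25 of 27 myeloid cells (92.6%). Its level ran from 0.09 to 2493 FPKM among the 286 cells that had it, with medians of 21.6, 23.5 and 15.9 FPKM in matrix, mural and myeloid cells with a value. Matrix means per capture were 80.5, 78.1 and 108 FPKM on day 12, 65 and 52.9 on day 15, and 31.7 and 127 on day 21. Neither kind differed detectably from matrix cells: mural minus matrix was -0.11 (SE 0.55, limma adjusted p = 0.95) and myeloid minus matrix -0.40 (SE 1.28, adjusted p = 0.86). A difference between kinds was thus not detectable at this spread, which does not show equal levels.

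The next question was whether matrix cells gained these genes between days 12, 15 and 21. None of the 7 genes that could be tested passed in any of the 3 day comparisons (limma over 13552 genes and 7 captures). Over all genes, 0% passed between days 15 and 12, 0.00738% between days 21 and 12 and 0% between days 21 and 15, although 791, 968 and 745 genes had an unadjusted p under 0.05. *Fabp4* had the largest difference among the 7 genes between days 21 and 12, and its mean of log2(mean FPKM + 1) was 3.25 on day 12 (SD 2.54, n = 3), 0.35 on day 15 (SD 0.50, n = 2) and 0 in both captures of day 21. Day 21 minus day 12 was -3.25 (SE 1.30, adjusted p = 0.67), and 2 of the 3 day 12 captures carried that level. *Plin2* was 6.09 (SD 0.34, n = 3) on day 12, 5.35 (SD 0.76, n = 2) on day 15 and 4.97 (SD 0.17, n = 2) on day 21, and day 21 minus day 12 was -1.13 (SE 0.53, adjusted p = 0.72). Its day 12 captures, at 86.5, 53.4 and 65.9 FPKM, were all above those of day 21, at 32.9 and 27.8, while those of day 15, at 27.2 and 58.3, overlapped both.

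Shares of matrix cells with a value were compared between the days by an exact permutation test over the 210 ways to assign 7 captures to the 3 days, on the spread of the day means (no direction), where the smallest possible p is 0.0095. *Cebpb* gave p = 0.029 without adjustment for the 10 genes: it was seen in 11 of 31, 13 of 26 and 7 of 17 cells on day 12, 12 of 50 and 8 of 22 on day 15, and 13 of 18 and 22 of 34 on day 21. The order of the days in *Cebpb* was also the order of their median depth. Captures of the same day can say little about depth, because matrix cells differed clearly in median depth only between captures of day 12. The cause of the order was not tested. With at least 1 estimated fragment asked for, the mean shares were 29.1%, 19.6% and 49.5% on days 12, 15 and 21 (exact permutation p = 0.21), and with each cell thinned to 500000 fragments 30.7%, 20.7% and 38.4% (exact permutation p = 0.33). In all cells, unfiltered, the shares were 40%, 26.6% and 64.8% (exact permutation p = 0.0095, the smallest possible). *Cebpa* had mean shares of 6.47% on day 12, 7.27% on day 15 and 20.1% on day 21, which did not pass (exact permutation p = 0.067). *Fabp4* gave 17.0%, 5% and 0% (exact permutation p = 0.17), and *Plin2* 57%, 30.9% and 39.7% (exact permutation p = 0.12).

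**Figure D4:**
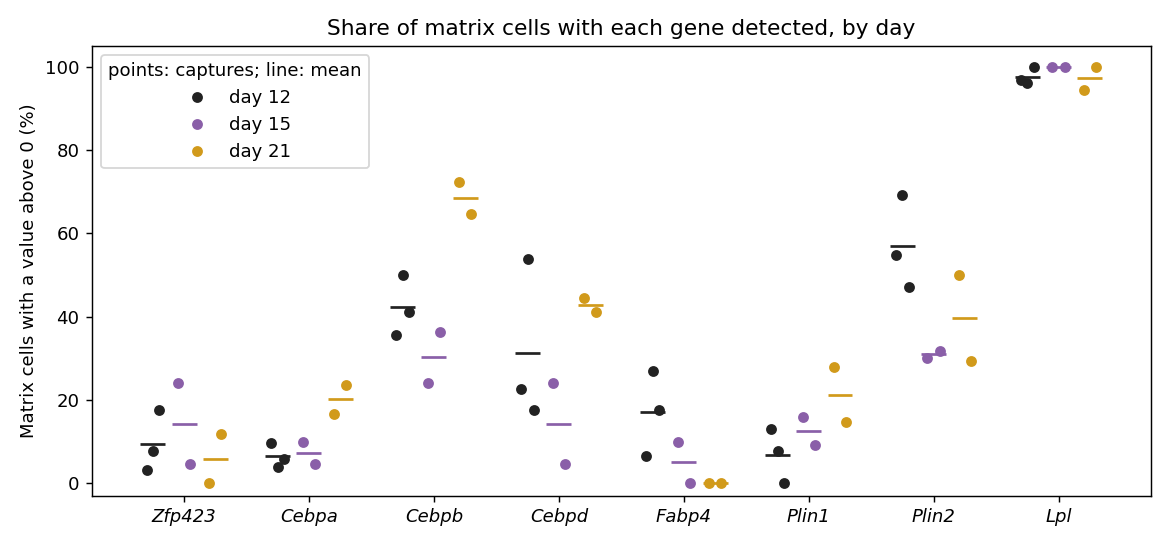
Share of matrix cells with a value above 0 (%), by day, for the 8 genes seen in matrix cells; points are captures and lines are means over captures. *Cebpb* is highest in both day 21 captures, at 64.7% and 72.2%, and *Fabp4* is at 0% in both.

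Co-expression in single cells was read next. The median matrix cell had 2 of the 10 genes above 0, the median mural cell 3 and the median myeloid cell 4. At least 4 genes were seen together in 42 of 198 matrix cells (21.2%), 23 of 57 mural cells (40.4%) and 14 of 27 myeloid cells (51.9%), with no test because cells are not replicates. By capture this share ran from 0 to 42.3% in matrix cells, 12.5 to 66.7% in mural cells and 20 to 66.7% in myeloid cells, so the kinds overlapped. In mural cells the 3 day 12 captures were at 66.7%, 57.1% and 64.3%, against 16.7% on day 15 and 12.5% on day 21. Such shares also depend on how often each gene was seen alone: *Cebpb* was in all 27 myeloid cells and *Lpl* in 25. No count under independence was set beside them, so they do not show that the genes go together. With at least 10 FPKM asked of each gene, 9 of 293 cells had 4 genes and none had more: 3 matrix, 3 mural and 3 myeloid cells.

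**Figure D5:**
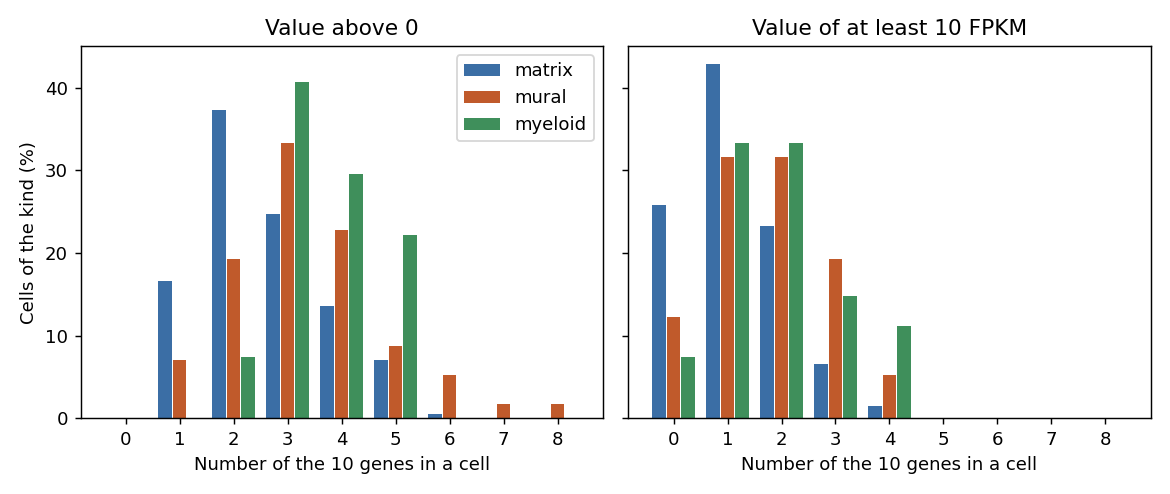
Number of the 10 genes in each cell, as a share of the cells of each kind (%), counted above 0 and at 10 FPKM or more. Above 0 the most common number is 2 in matrix cells and 3 in mural and myeloid cells, and no cell passes 4 genes at 10 FPKM or more.

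The 3 regulators *Zfp423*, *Pparg* and *Cebpa* were never seen all in 1 cell. They had values in 36, 13 and 33 of 293 kept cells, so such a cell would be rare even if the genes were independent. *Zfp423*, *Pparg* or *Cebpa* was present in 71 cells, but *Zfp423* with *Cebpa* in 6, *Pparg* with *Cebpa* in 5, and *Zfp423* with *Pparg* in none. Of the 5 cells with *Pparg* and *Cebpa*, 4 were myeloid and 1 was mural, against 2.33 and 0.33 cells if the 2 genes were independent within the captures of each kind. *Zfp423* with *Cebpa* was seen in 5 matrix cells against 2.54 and in 1 mural cell against 0.52. At 10 FPKM or more that pair was in 3 matrix cells against 0.34. These counts are small and were not tested. *Pparg* with *Fabp4* was seen in 5 cells, 4 mural and 1 myeloid, and none of these had *Cebpa*. The 4 mural cells had *Pparg* at 32.4, 12.2, 1.86 and 24.4 FPKM beside *Fabp4* at 103, 41.2, 174 and 101 FPKM. On the same reckoning 4.02 such mural cells would be counted.

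The most frequent strong pair outside *Lpl* was *Fabp4* with *Plin2*. Both were at 10 FPKM or more in 15 of 57 mural cells, 6 of 198 matrix cells and 1 of 27 myeloid cells. *Plin2* without *Fabp4* was found in 60 matrix, 11 mural and 19 myeloid cells. Above 0, the pair was seen in 18 mural cells against 16.1 from the shares within captures, and in 9 matrix cells against 8.85. The richest cell was a mural cell of day 12 capture 3 with 8 of the 10 genes, among them *Plin2* at 425 FPKM, *Fabp4* at 48.2 and *Zfp423* at 33.5. That cell had 4175000 estimated fragments and 9562 genes, well above the mural median of 5181 genes, and *Col1a1* at 5538 FPKM beside *Rgs5* at 684.

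Other genes of these pathways, in 4 lists, were counted in the same fits. Over all genes, 6.26% passed in myeloid against matrix cells, 1.69% in mural against matrix cells and at most 0.00738% between days. The small counts given for the lists lie near these shares. Of 16 other regulators 11 could be tested between days, 12 in mural and 10 in myeloid cells, and 1 passed in any comparison. *Ebf1*, an early regulator of fat precursors, was lower in myeloid than in matrix cells: the means were 4.12, 1.37, 0.29 and 0.10 FPKM in myeloid cells and 47.7, 25.1, 81.7 and 69.8 in matrix cells of the same captures (-4.68, SE 1.04, limma adjusted p = 0.030). In mural cells *Ebf1* stood at 282, 323, 458, 324 and 79.9 FPKM, and missed the threshold (2.56, SE 0.56, adjusted p = 0.052). Its relative *Ebf2*, chosen after its values were seen, was higher in 5 of 5 captures and missed it too (3.25, SE 0.71, adjusted p = 0.053). The other most abundant regulators were *Klf4*, at a mean of 60.8 FPKM over kept cells, and the glucocorticoid receptor gene *Nr3c1*, at 27.2. The median of the list was 0.38 in mural minus matrix and -1.20 in myeloid minus matrix cells, beside -0.22 and -0.98 over all genes.

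Of 12 genes of droplet coats and lipolysis none passed, with 7 tested between days and in mural cells and 8 in myeloid cells. *Bscl2*, needed to bud droplets, averaged 59.3 FPKM over kept cells, *Hilpda*, an inhibitor of fat breakdown, 57.5, and *Plin3*, the broadly used perilipin, 38.6. *Plin4*, *Plin5*, *Cidea* and *Cidec* were listed at 0 in all kept cells. The list's median was 0.22 in mural minus matrix and -1.82 in myeloid minus matrix cells.

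Of 12 genes of fatty acid uptake and triglyceride synthesis, 6 were tested between days, 8 in mural and 9 in myeloid cells. Of these, 1 passed, in myeloid cells, where 6.26% of all genes did. *Cd36*, a fatty acid receptor of macrophages and fat cells, was higher in myeloid cells: its means were 253, 51.9, 30.5 and 0 FPKM, while all 4 matrix means were 0 (4.67, SE 1.21, limma adjusted p = 0.047, no fold because the matrix side is listed at 0). It was at 10 FPKM or more in 12 of 27 myeloid cells and in no matrix or mural cell. Whether the *Cd36* and *Ebf1* calls hold under other processing settings is not given here. Leaving out any capture lowered the number of myeloid calls over all genes. *Fabp5*, the other abundant fatty acid carrier, averaged 257 FPKM over kept cells, with 1237 in myeloid, 191 in mural and 150 in matrix cells; myeloid minus matrix was 2.25 (SE 0.88, adjusted p = 0.13). In matrix cells its capture means were 370, 385 and 296 FPKM on day 12 and 15.0 to 35.1 in the 4 later captures. Neither later day passed against day 12. The differences were -3.86 for day 15 (SE 0.48, limma adjusted p = 0.10) and -3.50 for day 21 (SE 0.48, limma adjusted p = 0.097). The fatty acid transporter *Slc27a1* averaged 60.3 FPKM and *Angptl4*, which blocks lipoprotein lipase, 37.6. The 7 products of mature fat cells could be tested for 2 genes in mural cells and for none elsewhere, and none passed. *Agt* led that list at 1.50 FPKM, followed by *Slc2a4* at 0.73 and *Retn* at 0.047.

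Genes whose pattern over matrix cells was most like that of the members were sought among 9408 genes seen in at least 20% of 198 matrix cells, by the mean of Spearman's rho within each of 7 captures. The nearest were *Hspa1b* for *Cebpb* (0.34), *Trappc8* for *Cebpd* (0.36), *Csgalnact1* for *Plin2* (0.36) and *Becn1* for *Lpl* (0.32). Among the 4 members that could be compared, the closest pair was *Cebpb* with *Cebpd* at 0.17, from -0.38 to 0.41 by capture. These are weak values in sparse data that share library and depth, and are given as a description.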

How the data were processed

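The authors aligned paired-end reads to mm10 with Bowtie 1.0.0 and quantified them with RSEM, and deposited FPKM per gene and cell, a unit without counts. Symbols and positions were taken from GENCODE mouse release 21 (50376 of 50600 identifiers), while the authors used release 13. No cell columns were identical. Fragments per cell were estimated from the steps of FPKM values of 9426 single-transcript genes of at least 1000 bases, with a fragment length of 300. Cells with at least 159000 fragments, at most 11000 genes and at most 15% mitochondrial FPKM were kept.

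Mean FPKM per capture and kind (at least 3 cells) was tested as log2(mean + 1), with genes of low values (mean under 1 FPKM) left out, by limma 3.58.1 in R 4.3.3 with a trend and Benjamini-Hochberg adjustment over all genes tested, at 0.05, after tests on simulated data. Kinds were compared with the capture as a block, without *Col1a1*, *Rgs5* and *Tyrobp*. A fold on this scale understates the change of low genes. Shares have exact Clopper-Pearson 95% intervals, and a share of 0 allows 3 counts; both cover counting error only. Named were all 10 genes, the 3 most abundant genes of each list, up to 3 passing genes a list and comparison, and the nearest genes by correlation. The members and lists were chosen with earlier results of these data known. Detection by estimated fragments and thinning were added after the data were seen.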

Additional observations from a re-analysis of the deposited data

Results flagged for a closer look

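The captures with at least 3 cells of a kind were searched for 1 that stood far from the others in its mean level (Dixon's gap over range, on the log2 scale), in 25 groups of 4 to 7 captures across days. In 3 of them a capture stood apart, all in myeloid cells. For *Plin1* and *Fabp4* the other captures were all at 0, where any value above 0 stands apart, so the usual chance rate of 1 in 20 does not apply to them. *Cebpd* averaged 147 FPKM in the 3 myeloid cells of day 21 capture 2 and 0 to 0.32 FPKM in the 3 other captures, and 1 cell at 441 FPKM carried that mean. *Plin1* averaged 181 FPKM in the 12 myeloid cells of day 12 capture 2 and 0 in the 3 others, again from 1 cell, at 2168 FPKM. *Fabp4* averaged 0.217 FPKM in day 21 capture 2 and was listed at 0 in the 3 others.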

How the results depend on the processing

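The calls for *Fabp4* in mural cells and *Plin2* in myeloid cells kept their direction under every alternative run, and the report gives those that end a call. The number of the 10 genes past the threshold fell from 1 to 0 in both kind comparisons with no filter on low values, ranged from 0 to 1 with captures left out in each, and was 2 in myeloid cells with mean log2 per cell. Over all genes, mural calls numbered 234, 16 with no filter, 651 with mean log2 per cell and 98 to 226 with a capture left out. Myeloid calls numbered 819, 182 with pseudocount 10, 30 with no filter, 466 in all cells, 1359 with cells scaled to the same total, 400 with at least 5 cells and 108 to 322 with a capture left out. Between days 21 and 12, the 1 gene became 0 with pseudocount 0.1, no filter, the replicate block, scaled cells, weights or any capture left out, 2 with stricter kinds and 70 with mean log2 per cell. Between days 15 and 12, 0 became 28 with mean log2 per cell and 1 with weights, and between days 21 and 15, 0 became 1 with pseudocount 10. The cause of these shifts was not tested.

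The *Cebpb* share by day was the 1 gene of 10 past 0.05, was also past it in all cells (p = 0.0095 by the exact permutation test) and with stricter kinds (p = 0.029), and became 0 of 10 at 1 FPKM, at 10 FPKM, at 1 estimated fragment and with thinning, and 0 to 1 with captures left out, where leaving out a day 12 capture allows no p below 0.0667. At least 4 genes were seen together in 28% of cells, in 12.6% at 1 FPKM, 22.9% at 1 estimated fragment and 3.07% at 10 FPKM.

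The differences that changed sign passed the threshold under no setting. Between days 15 and 12, *Cebpa* was -0.14 with pseudocount 0.1 and -1.21 to 2.65 with captures left out, and *Plin2* 0.28 in all cells. Between days 21 and 12, *Zfp423* was 0.41 with the replicate block, 0.46 with weights and -1.42 to 1.11 with captures left out. *Cebpb* was -0.044 with the block, -0.091 in all cells and -0.044 to 0.53 with captures left out, *Cebpd* -0.056 with the block and -1.0 to 2.03, and *Lpl* -1.44 to 0.53. Between days 21 and 15, *Zfp423* was -0.044 with mean log2 per cell and -0.43 to 2.10 with captures left out, *Cebpa* -0.014 with weights and -1.11 to 2.75, *Plin2* 0.33 with mean log2 per cell and -0.92 to 0.15, and *Lpl* -0.87 to 1.11. In mural minus matrix cells, *Zfp423* was 0.022 with pseudocount 0.1, 0.30 in all cells, 0.11 with mean log2 per cell and -0.53 to 0.099 with captures left out, *Lpl* 0.093 in all cells, 0.29 with mean log2 per cell, 0.19 with weights and -0.64 to 0.23, and *Cebpd* -0.45 to 1.18. In myeloid minus matrix cells, *Cebpa* was -0.13 with pseudocount 0.1, -0.023 in all cells, -0.17 when scaled and -1.28 to 1.19 with captures left out, *Cebpd* 0.51 with pseudocount 10, 0.094 with mean log2 per cell and -1.22 to 0.64, and *Lpl* 1.67 with at least 5 cells and -1.64 to 1.23. The share of matrix cells on day 21 minus day 12 was -9.52 to 2.24 percentage points for *Zfp423* with captures left out, and for *Lpl* 5.95 in all cells and -3.20 to 2.36.

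Captures of the same number on different days showed no shared deviation (correlations from -0.0068 to 0.025). With 2 captures each on days 15 and 21, these correlations depend on each other. They cannot show that the numbers pair nothing. The replicate block changed no call among the 10 genes. Stricter kinds do not apply to co-detection over all kinds and were not run there.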
